A study of Arabidopsis thaliana with 18 samples.

Results

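Fructokinases are encoded in Arabidopsis thaliana by a small gene family, here the 7 loci AT2G31390, AT1G06030, AT1G06020, AT3G59480, AT4G10260, AT1G66430 and AT5G51830. They were taken by locus identifier, with no threshold on their values, from a table of read counts for 32833 genes. RNA was sequenced from 18 libraries of the Col-0 ecotype, 3 for each of 6 groups in 2 experiments. In the disc experiment, discs cut from mature rosette leaves of Col-0 plants 4 weeks old were kept overnight in MS medium of reduced strength, to which either 1% mannitol, the osmotic control, or 1% glucose or 1% fructose had been added. All 3 disc groups therefore share excision and overnight incubation, and untreated discs were not analysed here. In the leaf experiment, untreated leaves of wild-type plants 4 weeks old were set against leaves of overexpressor 1 and overexpressor 2, lines of the same age that overexpress ERDL4 (AT1G19450), a sugar transporter of the vacuolar membrane. Neither the promoter of the transgene nor the number of plants per library is stated in the labels. Titles use the term biological replicate without naming separate plants, and the p-values rest on the spread among such libraries, which may be technical.

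Fructokinase transfers phosphate from ATP to fructose and gives fructose 6-phosphate. In leaves and in tissues that import sugar, free fructose arises when invertases or sucrose synthase cleave sucrose, and phosphorylation commits it to glycolysis, starch synthesis or the rebuilding of sucrose. Hexokinases also accept fructose but prefer glucose, and fructokinases belong to the pfkB family of sugar kinases. Plants hold cytosolic fructokinases and a form that is imported into plastids.

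RefSeq describes each of the 7 products as a pfkB-like carbohydrate kinase family protein, and it places AT1G66430 in the chloroplast stroma. The coding sequences were read from the TAIR10.1 assembly, and each holds 1 copy of the short Gly-Ala-Gly-Asp motif that carries the catalytic aspartate of pfkB kinases. The stretches below are 36 bases of coding sequence from 5′ to 3′, with the 4 codons of the motif in capitals. They are shown because they let the members be told apart by sequence while keeping the residues of this pfkB motif.
AT2G31390: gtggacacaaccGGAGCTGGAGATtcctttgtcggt
AT1G06030: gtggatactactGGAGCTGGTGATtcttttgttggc
AT1G06020: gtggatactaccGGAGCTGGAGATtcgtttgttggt
AT3G59480: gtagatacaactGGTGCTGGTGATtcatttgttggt
AT4G10260: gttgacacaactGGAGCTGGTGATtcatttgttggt
AT1G66430: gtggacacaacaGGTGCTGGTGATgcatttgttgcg
AT5G51830: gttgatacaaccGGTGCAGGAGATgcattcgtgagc
The 4 codons in capitals differ in spelling between members and encode the same residues. In AT1G66430 and AT5G51830 the codon after the motif is gca, and in the other 5 it is a tc codon.

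The members fall into close and distant relatives. AT2G31390 (chromosome 2, 13383423 to 13386392, minus strand, 4 exons, 325 residues), AT1G06030 (chromosome 1, 1826803 to 1828279, plus strand, 4 exons, 329 residues), AT1G06020 (chromosome 1, 1824250 to 1826163, plus strand, 4 exons, 345 residues) and AT3G59480 (chromosome 3, 21982989 to 21984598, plus strand, 4 exons, 326 residues) were between 82.5% and 92.7% identical in protein sequence. AT4G10260 (chromosome 4, 6371377 to 6372789, minus strand, 5 exons, 324 residues) stood apart from them. AT1G66430 (chromosome 1, 24778257 to 24780742, plus strand, 7 exons, 384 residues) and AT5G51830 (chromosome 5, 21069110 to 21071739, plus strand, 8 exons, 343 residues) were 69.9% identical to each other, more than either was to any of the other 5. AT1G06020 and AT1G06030 are a tandem pair on 1 strand with 639 bp between them and are 92.7% identical in protein and 89.6% in coding sequence. Of the 50-base windows of their exons, 145 of 1020 in AT1G06030 and 43 of 1202 in AT1G06020 occurred elsewhere in the genome, so reads of these loci can be shared and their counts are uncertain. No such window was found in the other 5 members.

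Library totals ranged from 17318810 to 26157641 counts. ERDL4 lay between 111 and 152 CPM (counts relative to library size, scaled with TMM) in wild-type leaves. It was higher in every library of both lines, with 350 to 359 CPM for overexpressor 1 and 568 to 604 for overexpressor 2. Summed over 4 mesophyll markers, the level was 27849 to 41526 CPM in mannitol, 5333 to 11710.4 in fructose and 336 to 2127 in glucose, and all 4 fell in both sugars. In leaves the same sum lay between 45447 and 68932 CPM for wild type, between 21625 and 29151 for overexpressor 1 and between 20628 and 24516 for overexpressor 2. Phloem markers, 3 genes, summed to 154 to 199 CPM in mannitol, 75.4 to 110.3 in fructose and 69 to 76.7 in glucose, and guard cell markers, 3 genes, to 30.2 to 38.4, 91.1 to 96.7 and 60.4 to 87.7. Of the guard cell markers KAT1 alone was called against mannitol, at 20.8 CPM in mannitol, 81.2 in fructose and 58.8 in glucose. MYB60 averaged 3.05, 2.64 and 3.24 and FAMA 10.7, 9.49 and 12. For fructose against glucose, KAT1 was called higher and FAMA lower. Xylem markers, 3 genes, lay between 22.4 and 27.7 CPM for wild-type leaves, between 35.2 and 61.7 for overexpressor 1 and between 40.7 and 56 for overexpressor 2. All 3 were called higher in both lines. In discs they summed to 12.9 to 16.9 CPM in mannitol, 16.7 to 26.8 in fructose and 15.2 to 19.4 in glucose. CESA7 and CESA8 were called higher in fructose against mannitol, CESA4 was not, and none was called in glucose. Epidermis markers in leaves, 2 genes, lay between 59.3 and 76.5 CPM for wild type, between 40 and 45.4 for overexpressor 1 and between 28.6 and 35.8 for overexpressor 2, and ATML1 fell in both lines. Phloem markers there lay between 310.5 and 347 CPM, 419 and 431, and 300.3 and 340.4, with SUC2 called higher in overexpressor 1 and SEOR1 lower in both lines. Guard cell markers lay between 37.4 and 43.7 CPM, 44 and 55.5, and 34.7 and 37.5, with KAT1 called higher in overexpressor 1 and MYB60 lower in both lines. In discs, epidermis markers summed to 36 to 41.6 CPM in mannitol, 13.6 to 15.8 in fructose and 8.65 to 10.15 in glucose. The other epidermis marker, PDF1, averaged at most 0.367 CPM in any group and was not tested, so these sums are in effect those of ATML1. Root, seed and flower markers, 2 genes each, summed to at most 0.316 CPM in any library, with COBL9 and CRA1 at 0 in all 18. The part of these shifts in the results below was not tested. On the leading component of the disc libraries (79.6% of the variance) the groups lay apart, and in the leaves (75.4%) wild type replicate 2 (-51, others -76.5 and -80.2) and overexpressor 1 replicate 1 (7.38, others 45.1 and 44.7) stood apart from their groups.

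In the discs, 3 of the 7 members were transcribed above the filter on low counts (18784 genes kept), and all 3 rose in both sugars. AT5G51830 rose most, 33.3-fold in glucose and 9.59-fold in fructose. AT1G66430, the plastid enzyme, rose 3.55-fold in fructose and 1.72-fold in glucose, and AT2G31390 rose 1.81-fold and 1.94-fold. The other 4 members gave no more than 25 counts in any disc group. A gene was called where edgeR's quasi-likelihood test gave an adjusted p (Benjamini-Hochberg) under 0.05. In fructose, 3 of 3 members tested were called higher, where 66.1% of all tested genes were called, 36.6% higher and 29.5% lower. In glucose, again 3 of 3 were higher, where 74% of all tested genes were called, 38.5% higher and 35.5% lower. With library size alone as scaling, 45.4% and 43.9% of all genes were higher, and the median log2 fold change of all genes moved up by 0.25 and 0.20. Fructose and glucose were compared with the same mannitol libraries. Of these, replicates 1 and 2 were more alike than either was to replicate 3. Chi-square per degree of freedom between their counts was 4.589, against 26.38 and 26.81. The control may therefore hold fewer than 3 independent libraries, which the p-values and SEs do not allow for. With that pair merged, all 3 members were still called higher in both sugars.

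AT5G51830 gave 13.5, 10.8 and 13.1 CPM in the mannitol libraries. It gave 542, 351 and 354 CPM in glucose and 99.8, 179.8 and 79.9 in fructose. No library of 1 group overlapped another group, every glucose library lay above every fructose library, and fructose replicate 2 was the highest of its group. The log2 fold change was 5.06 ± 0.36 (SE) for glucose against mannitol, with edgeR adjusted p = 2.24e-06, and 3.26 ± 0.33 for fructose against mannitol, with edgeR adjusted p = 3.36e-05. Only 240 of 18784 genes (1.28%) had a higher fold change than AT5G51830 in glucose, and 461 (2.45%) in fructose. The log2 difference of fructose against glucose was -1.80 ± 0.31, with edgeR adjusted p = 0.00265. In bulk tissue, fewer cells of a type and less RNA per cell cannot be told apart, here or in any result below.

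AT1G66430 gave 25.5, 21.1 and 19.5 CPM in mannitol, 32.4, 45.7 and 35.2 in glucose and 77.7, 67.2 and 89.3 in fructose. The order of the sugars was therefore the reverse of that of AT5G51830, with all fructose libraries above all glucose libraries and those above all mannitol libraries. The log2 fold change was 1.83 ± 0.16 for fructose against mannitol (edgeR adjusted p = 4.98e-06) and 0.78 ± 0.16 for glucose against mannitol (edgeR adjusted p = 0.00132). Fructose exceeded glucose by 1.05 ± 0.16 (edgeR adjusted p = 0.00135).

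AT2G31390, the most abundant member in mannitol discs, gave 77.7, 67.1 and 92.3 CPM there, 180.4, 159.9 and 121 in glucose and 138, 158 and 135 in fructose. Both sugar groups lay above mannitol in every library and overlapped each other. The log2 fold change was 0.86 ± 0.16 for fructose (edgeR adjusted p = 0.000892) and 0.96 ± 0.16 for glucose (edgeR adjusted p = 0.000332). The difference between the sugars was -0.10 ± 0.16 (edgeR adjusted p = 0.618). Between fructose and glucose, 2 of 3 members tested were called, 1 in each direction, where 49.3% of all tested genes were called, 24.7% higher and 24.6% lower. About this locus, an antisense transcript, AT2G08435, overlaps 1754 bp and the opposite-strand gene STH overlaps 48 bp. The libraries were directional, but the strand setting of the counting is not stated in the labels or notes. Whether reads of these genes were counted apart is therefore not known. The antisense gene averaged 1.44 CPM in mannitol, 1.14 in glucose and 1.33 in fructose.

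**Figure D1:**
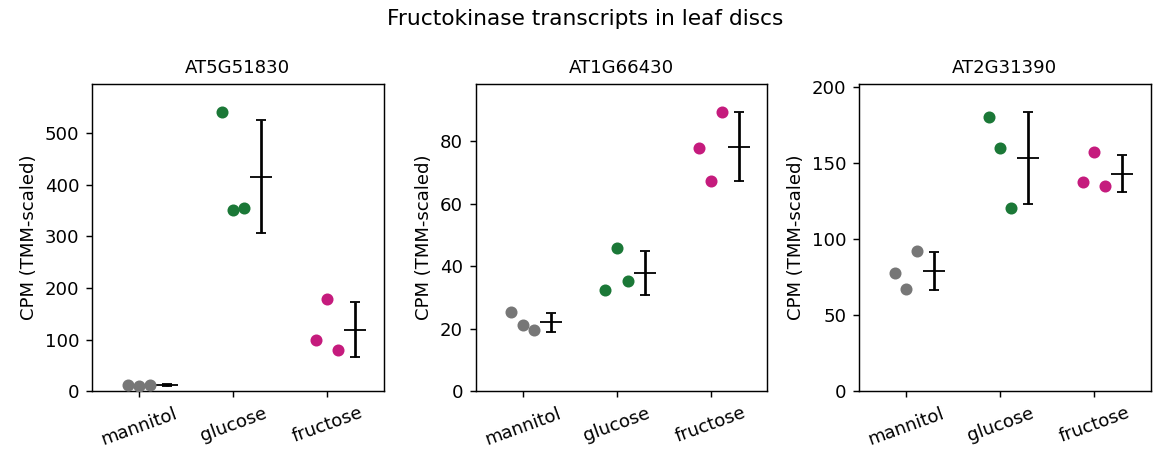
Transcript level (CPM, TMM-scaled, vertical axis from 0) of AT5G51830, AT1G66430 and AT2G31390 in mannitol, glucose and fructose discs, with 1 point for each of the 3 libraries of a group and the mean with its SD. AT5G51830 is highest in glucose (351 to 542 CPM), AT1G66430 in fructose (67.2 to 89.3), and AT2G31390 overlaps between the sugars.

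The 4 remaining members were counted a few times per library, and intervals on their ratios cover counting error only. AT1G06020, which RefSeq reports in the central cell and embryo, gave 8, 4 and 13 counts in the mannitol libraries, 1, 3 and 0 in glucose and 2, 1 and 3 in fructose. Each sugar library lay below each mannitol library. Its summed counts per total were 0.168 of the mannitol value in glucose (95% exact interval 0.0425 to 0.487) and 0.236 in fructose (0.0791 to 0.589). In a fit without the filter, edgeR gave it log2 fold changes of -2.63 (adjusted p = 0.0142) and -2.23 (adjusted p = 0.0269). That fit called 14230 of 24534 genes in glucose, 6765 of them lower, and 12524 in fructose, 5546 of them lower. AT3G59480 gave 0, 2 and 2 counts in mannitol, 1, 2 and 1 in glucose and 3, 3 and 5 in fructose, a fructose ratio of 2.7 with an interval from 0.801 to 11.6. AT1G06030 gave 6, 11 and 12 counts in all in mannitol, glucose and fructose. AT4G10260, reported by RefSeq in flower, petal and the male gametophyte, gave 0, 1 and 4 counts in all. A count of 0 over the mannitol libraries allows up to 0.0474 CPM before TMM scaling.

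Per length, the make-up of the family differed between the disc groups. Summed over all 7 members, the level was 74.7 ± 9.01 CPM per kb of exon in mannitol, 359.5 ± 75.4 in glucose and 212 ± 31.9 in fructose (SD, n = 3), which is 4.81 times and 2.84 times the mannitol value. AT2G31390 supplied 72% of the sum in mannitol, 29.3% in glucose and 46.3% in fructose. AT5G51830 supplied 9.31%, 64% and 30.6%. AT1G66430 supplied 18.1%, 6.62% and 22.9%, and AT1G06020 had the highest share of the other 4, at 0.396% in mannitol. The ratio of AT5G51830 to AT1G66430 per length was 0.484, 0.47 and 0.618 in the mannitol libraries, 1.18, 2.45 and 0.821 in fructose and 15.3, 7.05 and 9.24 in glucose. These groups did not overlap. In mannitol the order per length was AT2G31390 (45.8 to 62.9 CPM per kb), AT1G66430 (11.9 to 15.5) and AT5G51830 (6.01 to 7.5), with no overlap. In glucose it was AT5G51830 (196 to 302), AT2G31390 (82.3 to 123) and AT1G66430 (19.7 to 27.7), again with no overlap. In fructose the range of AT2G31390 (91.9 to 107) overlapped that of AT5G51830 (44.5 to 100.1), which overlapped that of AT1G66430 (40.8 to 54.2). Within each fructose library AT2G31390 lay above AT5G51830, whose ratio to it was 0.592, 0.932 and 0.484. AT5G51830 lay above AT1G66430 in replicates 1 and 2 and below it in replicate 3.

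**Figure D2:**
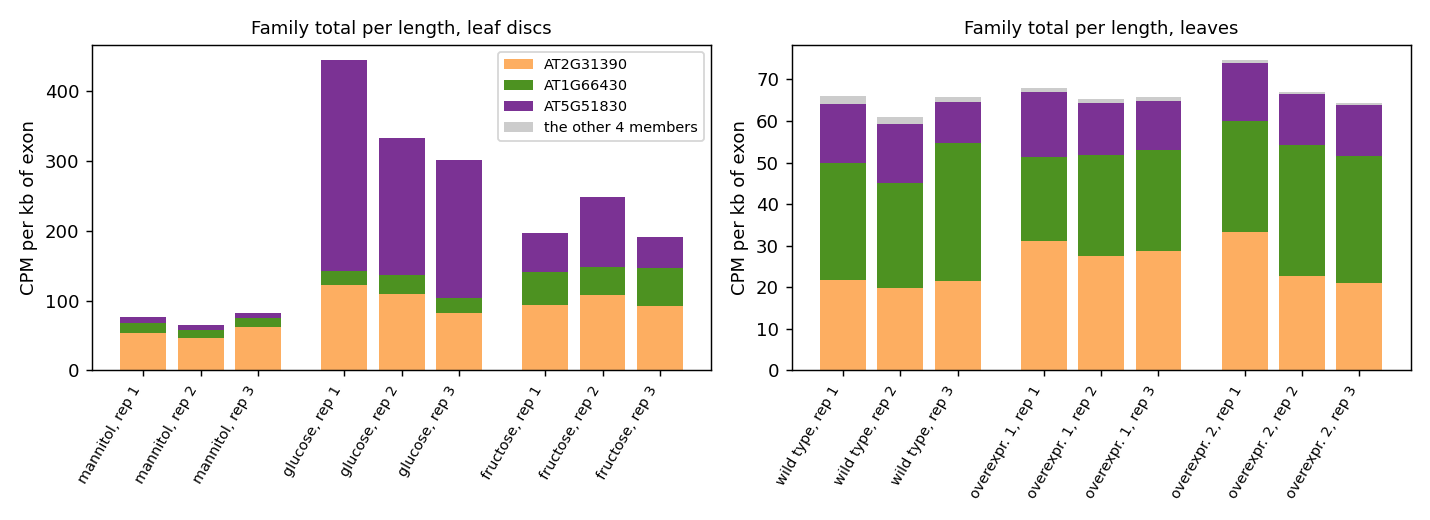
Summed level of the 7 members per length (CPM per kb of merged exon, vertical axis from 0) in each of the 18 libraries, split by member, with discs and leaves in separate panels. AT5G51830 makes up 64% of the glucose sum and 9.31% of the mannitol sum, and the leaf sums of the 3 genotypes overlap (60.9 to 74.7).

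Within fructose, replicate 2 had the highest AT5G51830 and the lowest AT1G66430, and within glucose replicate 1 did. The same libraries had the highest score of their group on the leading component, 43.9 against 26.1 and 15.2 in fructose and 99 against 73.3 and 86.7 in glucose. Whether this position and these levels are linked was not tested.

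The 250 bases before the annotated start are shown for the 3 members that rose together in both sugars, read 5′ to 3′ on the strand of the gene, with matches in capitals. The motifs searched on both strands were CACGTG (the G-box), TTGAC (the core of the W-box), AAACCCTA (the telobox) and TATCCA.
AT5G51830 at chr5:21068860-21069109 (+ strand, TAIR10.1): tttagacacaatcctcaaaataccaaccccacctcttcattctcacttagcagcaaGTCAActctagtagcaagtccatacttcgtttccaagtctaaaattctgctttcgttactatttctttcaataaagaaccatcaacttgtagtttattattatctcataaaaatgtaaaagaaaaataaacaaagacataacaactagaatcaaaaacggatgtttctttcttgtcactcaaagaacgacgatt
AT1G66430 at chr1:24778007-24778256 (+ strand, TAIR10.1): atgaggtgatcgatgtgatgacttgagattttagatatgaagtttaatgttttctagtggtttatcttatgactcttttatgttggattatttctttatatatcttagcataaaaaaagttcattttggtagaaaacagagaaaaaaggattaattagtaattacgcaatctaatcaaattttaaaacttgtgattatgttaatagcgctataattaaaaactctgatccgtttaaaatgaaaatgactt
AT2G31390 at chr2:13386393-13386642 (- strand, TAIR10.1): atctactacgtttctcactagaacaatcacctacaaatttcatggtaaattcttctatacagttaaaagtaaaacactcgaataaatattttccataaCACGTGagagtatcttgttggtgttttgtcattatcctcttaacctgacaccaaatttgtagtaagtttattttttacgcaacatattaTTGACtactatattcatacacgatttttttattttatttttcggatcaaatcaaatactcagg
AT2G31390 held a G-box 152 bases and a W-box core 63 bases before the start. AT5G51830 held a W-box core on the other strand 194 bases before, and AT1G66430 held none of the 4 in this window, whose first bases belong to the end of AT1G66420. Among the same windows of 27443 genes, 6.49% held the G-box, 44.9% the W-box core, 4.49% the telobox and 13.6% TATCCA. A match is a description of these letters and not a site.

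Genes around fructose phosphorylation moved in both directions. Of 38 pathway genes tested in discs from 5 lists, 19 were higher and 8 lower in fructose (71.1% called), and 18 were higher and 12 lower in glucose (78.9%), beside 66.1% and 74% of all genes. The lists were hexokinases, sucrose cleavage, use of fructose 6-phosphate, sucrose synthesis and the fructokinase-like proteins. Of 5 hexokinase genes tested, 2 rose and 1 fell in fructose and 3 rose in glucose. HXK1, the sensor and enzyme of glucose phosphorylation, rose by 1.08 ± 0.14 log2 in fructose (edgeR adjusted p = 8.59e-05) and 0.77 ± 0.14 in glucose. HKL1, a hexokinase-like protein, was -0.53 ± 0.10 in fructose and 0.45 ± 0.10 in glucose, both called. Of 15 genes that use fructose 6-phosphate, 8 rose and 3 fell in fructose and 9 rose and 6 fell in glucose, with a median log2 fold change of 0.72 and 0.74 against 0.09 and 0.03 over all genes.

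Among those genes, AT1G12000, a beta subunit of the pyrophosphate-dependent phosphofructokinase, rose from 27.2 CPM to 126 in fructose and 119 in glucose, by 2.21 ± 0.09 and 2.12 ± 0.09 log2. PFK3, an ATP-dependent phosphofructokinase, rose by 2.08 ± 0.13 and 2.68 ± 0.14. FBP, the cytosolic fructose-1,6-bisphosphatase that runs the reverse step, fell from 85.9 CPM to 8.59 and 5.39. F2KP, which makes and breaks the regulator fructose 2,6-bisphosphate, was -1.83 ± 0.11 in fructose and -2.27 ± 0.11 in glucose. In sucrose cleavage 3 of 9 tested genes rose and 4 fell in fructose, and 2 rose and 4 fell in glucose. CINV1, a neutral invertase, fell from 188 CPM to 42.2 in fructose and 42.7 in glucose, and CINV2, another, rose by 1.56 ± 0.19 and 0.85 ± 0.19. The vacuolar invertase ATBETAFRUCT4 fell from 878 CPM to 48.2 and 11.4. In sucrose synthesis 4 of 7 tested genes rose and 0 fell in fructose, and 2 rose and 2 fell in glucose. The fructokinase-like FLN1 and FLN2, relatives of the family that act in plastid transcription, both rose, FLN2 by 2.52 ± 0.13 and 2.58 ± 0.13.

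**Figure D3:**
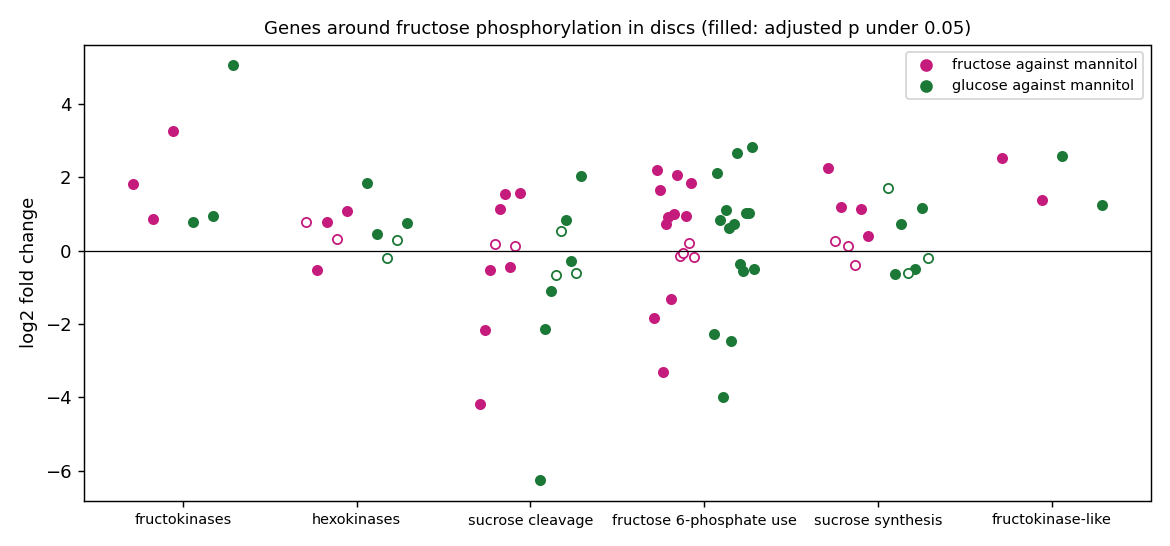
Log2 fold change (vertical axis) of the pathway genes in discs, by list, for fructose and glucose against mannitol. Filled points have an adjusted p under 0.05, and genes lie on both sides of 0 in each list except the 3 fructokinases tested and the fructokinase-like pair, where all lie above 0.

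By Pearson r of log2(CPM + 1) over the 9 disc libraries, which fall into 3 groups and share them for every gene, the 3 genes most like AT1G66430 were AT1G20950, of the phosphofructokinase family (r = 0.993), ENOC, the cytosolic enolase (0.993), and EMB1467, a NADH-ubiquinone dehydrogenase (0.99), where 256 of 18783 genes reached 0.95. Those most like AT5G51830 were AT1G76480, SK18 and UGT73C1 (0.998 to 0.999), where 2586 reached it. Those most like AT2G31390 were AT1G71780, GSTF2 and AT3G46110 (0.977 to 0.979), where 109 reached it.

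Among annotated neighbours within 2000 bp, changes went in both directions. PGM, phosphoglucomutase, lies 782 bp from AT5G51830 on the opposite strand. It stood at 39.5 CPM in mannitol, 48.6 in fructose and 33.7 in glucose, with neither difference from mannitol called. AT5G51840, 204 bp from it, rose in fructose (0.44 ± 0.14, edgeR adjusted p = 0.018) and was -0.03 ± 0.14 in glucose. STO, 60 bp from AT1G06030, was -1.30 ± 0.15 log2 in fructose and -2.56 ± 0.16 in glucose, both called. AT1G06010, 13 bp from AT1G06020, rose by 0.65 ± 0.16 and 0.51 ± 0.16. Near AT2G31390, STH was -0.76 ± 0.14 and -0.74 ± 0.14, both called, and GUN1 and AT2G31370 were called in glucose alone (-0.22 ± 0.08 and -0.24 ± 0.09). AT3G59500, 1864 bp from AT3G59480, rose by 0.36 ± 0.09 and 0.67 ± 0.09. AT4G10265, 218 bp from AT4G10260, averaged 0.109 CPM in mannitol, 1.04 in fructose and 1.44 in glucose, and was called in both sugars. For fructose against glucose, PGM (0.53 ± 0.16), AT5G51840 (0.47 ± 0.14) and STO (1.25 ± 0.15) were called higher and AT3G59500 (-0.31 ± 0.09) lower. In the leaves, AT3G59490, which overlaps AT3G59480 by 3 bp, rose by 0.64 ± 0.12 in overexpressor 1 and 0.50 ± 0.12 in overexpressor 2. AT5G51840 was -0.82 ± 0.17 and -0.97 ± 0.17, both called. In overexpressor 1 alone, STO was called higher (0.46 ± 0.14) and STH (-0.37 ± 0.12) and AT1G06010 (-0.48 ± 0.16) lower, and in overexpressor 2 alone GUN1 (-0.52 ± 0.16) and AT2G31370 (-0.31 ± 0.09) were called lower. Calls in a single sugar or line are not a test of the difference between them.

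In leaves, 5 of the 7 members passed the filter (18703 genes kept) and the family total had ranges that overlapped between the 3 genotypes, at 64.2 ± 2.90 CPM per kb in wild type, 66.3 ± 1.37 in overexpressor 1 and 68.7 ± 5.32 in overexpressor 2 (SD, n = 3). Wild-type levels per length ran from AT1G66430 (25.1 to 33.1 CPM per kb) through AT2G31390 (19.9 to 21.7) and AT5G51830 (9.94 to 14.4) to AT3G59480 (0.787 to 1.1), with no overlap between these 4. AT2G31390 was higher in overexpressor 1 and AT3G59480 was lower in overexpressor 2. In overexpressor 1, 1 of 5 members tested was called, higher, where 43.8% of all tested genes were called, 21.5% higher and 22.3% lower. In overexpressor 2, 1 of 5 was called, lower, where 42.1% of all tested genes were called, 20.6% higher and 21.5% lower. Both lines were compared with the same wild-type libraries. Scaling by library size alone moved the median of all genes up by 0.21 and 0.27 log2 and put 32.8% and 36.9% of genes higher and 14.9% and 12.7% lower.

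AT2G31390 gave 31.8, 29.2 and 31.6 CPM in wild type, 45.5, 40.5 and 42 in overexpressor 1 and 48.9, 33.3 and 30.7 in overexpressor 2. All overexpressor 1 libraries lay above wild type, and overexpressor 2 overlapped it with replicate 1 apart from the others. The log2 fold change was 0.47 ± 0.16 in overexpressor 1 (edgeR adjusted p = 0.0355), a 1.38-fold rise, and 0.28 ± 0.16 in overexpressor 2 (edgeR adjusted p = 0.175). Without the pair of leaf libraries that stand apart, the rise in overexpressor 1 was 0.40 (edgeR adjusted p = 0.104). This rise was also not called with the similar replicates 2 and 3 of each line merged. Chi-square per degree of freedom between the counts of replicates 2 and 3 was 2.073 in overexpressor 1 and 1.701 in overexpressor 2. Against replicate 1 it was 61.98 and 66.06 in overexpressor 1 and 27.45 and 27.9 in overexpressor 2. Without any 1 wild-type or overexpressor 1 library it was 0.42 to 0.51, about as large, with edgeR adjusted p from 0.0573 to 0.0776. Scaled by library size alone, the difference in overexpressor 2 was 0.54 (edgeR adjusted p = 0.011). The antisense AT2G08435 stood at 0.31 CPM in wild type and at 0.82 and 0.967 in the lines, both called (1.40 ± 0.50 and 1.63 ± 0.50 log2).

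AT3G59480 gave 27, 24 and 20 counts in the wild-type libraries, 18, 16 and 14 in overexpressor 1 and 12, 6 and 5 in overexpressor 2. Scaled, these are 1.38, 1.26 and 0.986 CPM, then 0.706, 0.587 and 0.582, then 0.672, 0.311 and 0.259, and each overexpressor library lay below each wild-type library. The log2 fold change was -0.95 ± 0.36 in overexpressor 1 (edgeR adjusted p = 0.0553) and -1.55 ± 0.39 in overexpressor 2 (edgeR adjusted p = 0.0107). Without the leaf libraries that stand apart the latter was -1.49 (edgeR adjusted p = 0.0231). With similar replicates merged (2 and 3 of each line) it was -1.42 and no longer called (edgeR adjusted p = 0.0574). A filter of at least 1 CPM in 3 libraries removed the gene. AT1G06020 gave 23, 9 and 8 counts in wild type, 12, 16 and 9 in overexpressor 1 and 5, 1 and 9 in overexpressor 2. The groups overlapped, with log2 fold changes of -0.50 ± 0.57 and -1.34 ± 0.65 (edgeR adjusted p = 0.502 and 0.122).

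AT1G66430, the member with the highest leaf level per length in wild type (28.8 CPM per kb), gave 46.3, 41.3 and 54.5 CPM there, 33.5, 39.8 and 40.1 in overexpressor 1 and 43.8, 51.9 and 50.6 in overexpressor 2. Overexpressor 1 lay below the other groups in every library, and overexpressor 2 overlapped wild type. The log2 fold change was -0.33 ± 0.13 in overexpressor 1 (edgeR adjusted p = 0.0623) and 0.04 ± 0.13 in overexpressor 2 (edgeR adjusted p = 0.807). AT5G51830, which rose most in the sugar discs, gave 25.4, 25.9 and 17.8 CPM in wild type, 27.9, 22.7 and 21.1 in overexpressor 1 and 25.1, 22.2 and 21.7 in overexpressor 2. All groups overlapped, and the log2 fold change of 0.05 ± 0.16 in overexpressor 1 had edgeR adjusted p = 0.807. Its sign in either line changed with the scaling or the libraries used. AT1G06030 gave 4, 3 and 0 counts in wild type, 0, 1 and 6 in overexpressor 1 and 0, 5 and 1 in overexpressor 2. AT4G10260 gave 0 counts in all 9 leaf libraries, which allows up to 0.0456 CPM before TMM scaling in wild type, 0.0405 in overexpressor 1 and 0.0573 in overexpressor 2.

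**Figure D4:**
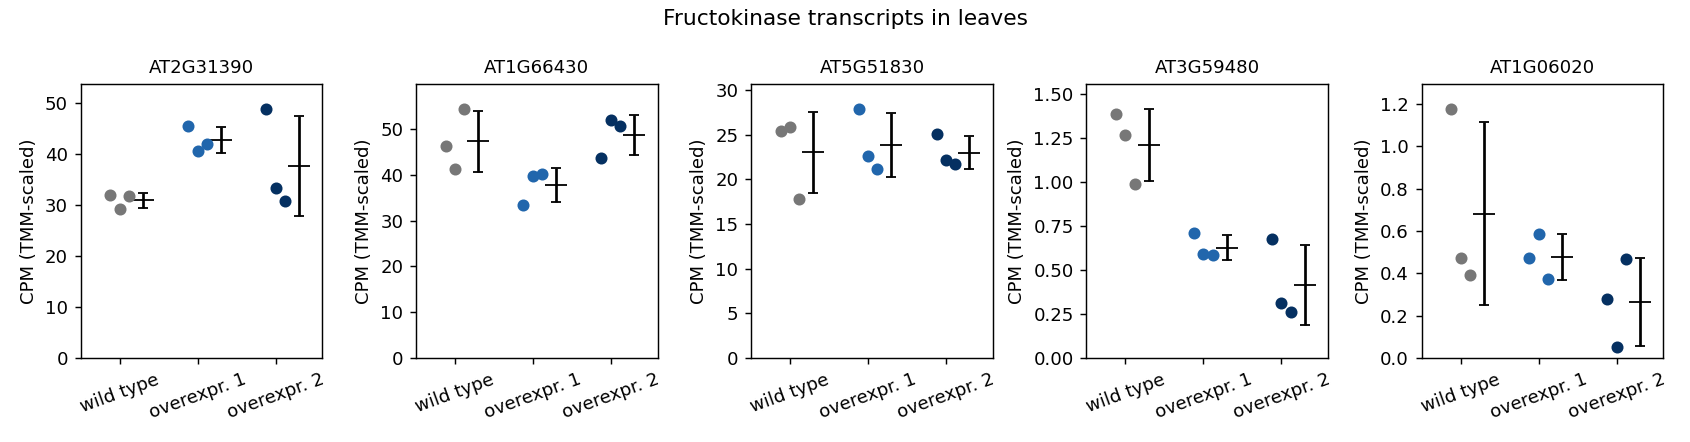
Transcript level (CPM, TMM-scaled, vertical axis from 0) of the 5 members tested in leaves of wild type, overexpressor 1 and overexpressor 2, with 1 point per library and the mean with its SD. AT2G31390 lies above wild type in every overexpressor 1 library (40.5 to 45.5 CPM against 29.2 to 31.8), and AT3G59480 lies below it in every library of both lines.

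Between the lines, 0 of 5 members were called by edgeR, DESeq2 or limma-voom. Of all tested genes, edgeR called 0.0535%, with 0.0321% higher and 0.0214% lower. AT1G66430 was 0.37 ± 0.13 log2 higher in overexpressor 2 (edgeR adjusted p = 0.226, not called), with no overlap between the libraries. The share of all genes without such overlap was not counted.

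**Figure D5:**
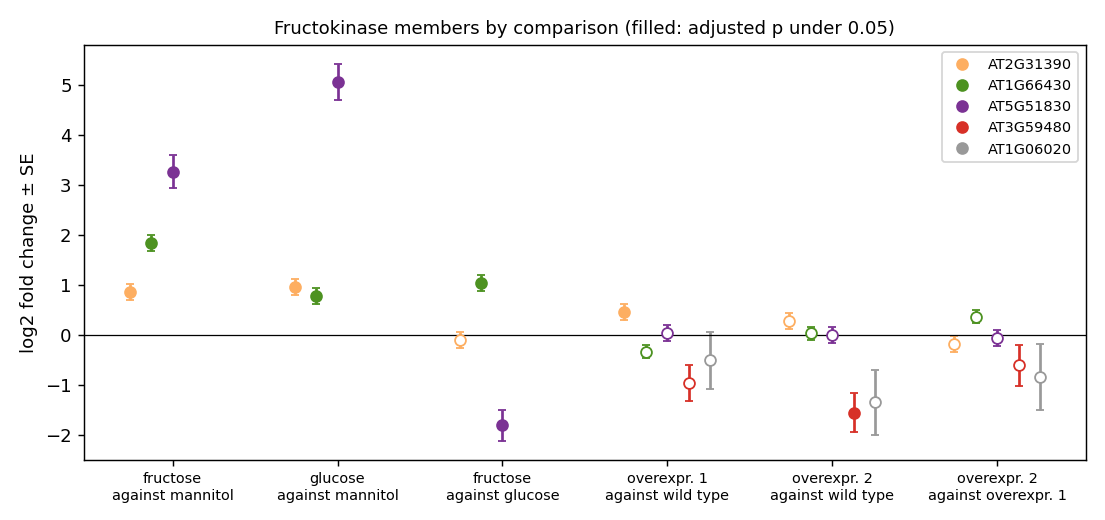
Log2 fold change with its SE (vertical axis) of each member tested, in the 6 comparisons (horizontal axis). Filled points have an adjusted p under 0.05, and the disc changes of AT5G51830 (5.06 and 3.26) are the furthest from 0.

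Of 39 pathway genes tested in leaves, 14 were higher and 13 lower in overexpressor 1 and 12 higher and 15 lower in overexpressor 2 (69.2% called in both), beside 43.8% and 42.1% of all genes. Of 5 hexokinase genes tested, 2 rose and 2 fell in each line. HXK2, a hexokinase, rose from 41.8 CPM to 115 and 125, by 1.46 ± 0.14 and 1.58 ± 0.14 log2 (edgeR adjusted p = 0.000207 and 0.000126), and HXK1 by 0.35 ± 0.09 and 0.34 ± 0.09. HXK3 was -1.49 ± 0.44 and -2.12 ± 0.47, and HKL1 -0.60 ± 0.17 and -0.59 ± 0.17, all called. Of 15 genes that use fructose 6-phosphate, 3 rose and 6 fell in overexpressor 1 and 2 rose and 7 fell in overexpressor 2. PFK7, a phosphofructokinase, rose by 1.47 ± 0.13 and 1.41 ± 0.13, and FBP was -0.74 ± 0.14 and -0.98 ± 0.14. Of 10 genes of sucrose cleavage, 4 rose and 4 fell in each line, among them SUS3, a sucrose synthase (2.49 ± 0.39 and 2.44 ± 0.39), and CINV1 (-1.44 ± 0.24 and -1.66 ± 0.25). Of 7 genes of sucrose synthesis tested, 5 rose and 0 fell in overexpressor 1 and 4 rose and 1 fell in overexpressor 2. The sucrose phosphate synthase SPS2F rose by 2.16 ± 0.25 and 1.71 ± 0.25. FLN1 was -0.93 ± 0.20 and -0.57 ± 0.20, both called. By r over the 9 leaf libraries, FLN2 was the gene most like AT1G66430 (0.988), ahead of AT1G09640 and AT5G48760 (0.982), and AT3G59480 was most like AT1G78830, NIT1 and AlaAT1 (0.98 to 0.984). AT2G31390 was most like AT3G11530, AT4G08455 and AT5G11600 (0.962 to 0.977), and AT5G51830 most like IWS1, cwINV6 and AT4G30390 (0.951 to 0.96). AT1G06020 was most like AT1G22510, AT4G01110 and AT3G26470 (0.862 to 0.864). Of 18702 genes, 31 reached 0.95 for AT1G66430, 52 for AT3G59480, 9 for AT2G31390, 4 for AT5G51830 and 0 for AT1G06020.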

How the data were processed

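RNA of 18 Arabidopsis libraries was measured by sequencing. The authors deposited 1 table of raw read counts per gene, not normalized. Per the submitters' processing notes, fastp, HISAT2 2.0.5, StringTie 1.3.3 and TAIR10 were used, and per the labels' protocols the libraries were directional. The counting tool is not given in the sources used here. Of 32833 loci, 32548 matched RefSeq on TAIR10.1, which gave names, positions and sequences.

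Each experiment was fitted apart on its 9 libraries with edgeR 4.0.16 in R 4.3.3 (filterByExpr, TMM, robust quasi-likelihood test, 1 mean per group, 6 residual degrees of freedom). Adjustment was Benjamini-Hochberg over all genes tested, with calls under 0.05. The ± beside a log2 fold change is an approximate SE, its size over the square root of F. Levels per kb use merged exons. A count of 0 was read as allowing 3 counts over the group. The steps were also run on simulated counts with independent libraries and few changed genes. That run cannot test the scaling or the similar replicates of these data.

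The members, the pathway lists and the tests were chosen with earlier results of these data known. All 7 members are named. Other named genes were drawn from up to 2 called genes with the smallest p in each direction per list described, neighbours within 2000 bp that were called in a comparison, the 3 genes most like each member, and ERDL4. Lists are described by counts and no set test was run. Replicate numbers were not taken to pair libraries. Alternatives were RLE and library-size scaling, DESeq2 1.42.0, limma-voom (limma 3.58.1), other filters, a replicate block, the 2 groups alone, an adjusted p under 0.01, merging similar replicates and leaving out each library. Leaving out the pair of leaf libraries that stand apart was chosen after seeing the data.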

Additional observations from a re-analysis of the deposited data

How the results depend on the processing

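All member calls in discs held under 19 alternatives, with log2 fold changes from 4.77 to 5.25 (glucose) and 2.85 to 3.52 (fructose) for AT5G51830. With no filter, 4 of 7 members were called in each sugar against mannitol, the added 1 being AT1G06020, which was lower. AT2G31390, not called between the sugars, changed sign without glucose replicate 1 (range with each library left out -0.2499 to 0.0244). In leaves the calls were less steady. Members called in overexpressor 1, 1 as reported, were 2 with limma-voom and with the 2 groups alone, 0 at an adjusted p under 0.01, with similar replicates merged and without the pair of leaf libraries that stand apart, and 0 to 2 with each library left out. There AT2G31390 had log2 fold changes of 0.40 to 0.68 over the 20 alternatives (0.47 as reported), and it was called in 11 of them. In overexpressor 2, 1 as reported, members called were 2 with library size alone and 0 with a filter of at least 1 CPM, at an adjusted p under 0.01 and with similar replicates merged, where AT3G59480 was -1.42 (edgeR adjusted p = 0.0574). The cause of these changes was not tested, except that the filter removes AT3G59480.

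Of same-number pairs of libraries, 1 of 9 in discs and 3 of 9 in leaves correlated over 0.1. Libraries correlated best with their own number in 2 of 18 and 8 of 18 cases. Deviations within a group of 3 depend on each other and some replicates are similar, so this check cannot exclude pairing by replicate number. With the replicate block, 2 members were called in overexpressor 1, AT1G66430 joining AT2G31390 (edgeR adjusted p = 0.0484), and no other member call changed. Signs of uncalled values also turned. AT1G06020 in overexpressor 1 was 0.1683 without wild type replicate 1 and otherwise down to -0.7655. AT1G66430 in overexpressor 2 was -0.0175 without the libraries that stand apart, and -0.0164 and -0.0019 without wild type replicate 2 and overexpressor 2 replicate 2, with 0.1782 the highest. AT5G51830 in overexpressor 1 was -0.0851 and -0.0722 without wild type replicate 3 and overexpressor 1 replicate 1, with 0.1673 the highest of these fits. In overexpressor 2 it was 0.25 with library size alone, 0.0149 with limma-voom, 0.0026 with no filter, 0.0097 with the block, 0.0302 with similar replicates merged, 0.1136 without the libraries that stand apart and -0.1377 to 0.1144 with each library left out. Between the lines it was 0.0005 with library size alone, 0.0768 without the libraries that stand apart and -0.1367 to 0.0704 with each library left out. Some counts over all genes moved by more than 1.5 times. Between the sugars the count was 5463 at an adjusted p under 0.01 (9268 as reported). In overexpressor 1 (8196) it was 5053 at that threshold and 5110 with merged replicates. In overexpressor 2 (7866) it was 4600 in 1 alternative other than merging, while merged replicates gave 5306, a smaller move. Between the lines (10) it was 724 with DESeq2, 817 without the libraries that stand apart, 91 with the 2 groups alone and 25 with no filter. There it was also 1 with the block, 1 at an adjusted p under 0.01, 0 with merged replicates and 0 to 492 with each library left out. Low counts limit what can be seen of AT1G06030, AT1G06020, AT3G59480 and AT4G10260.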
